A study of Mus musculus with 12 samples.

Results

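The orexin and melanin-concentrating hormone (MCH) systems of the hypothalamus were described here through 5 genes: the precursors of the peptides, Hcrt (hypocretin, or orexin) and Pmch (pro-MCH), and the receptors Hcrtr1, Hcrtr2 and Mchr1. They were taken by gene symbol, with every non-control probe that carries one of these names on the array, which gave 7 of the 41174 probes and 5 of the 28307 symbols. Hypothalamic RNA of male ICR mice, an outbred strain, was labeled with Cy3 and hybridized to 12 Agilent mouse arrays of 1 color. Mice were 3 weeks old when they were given drinking tubes. Water mice had water in both tubes, and alcohol mice chose between water and a solution of 5% or 10% alcohol. The labels divide the alcohol arrays into low drinkers, early high drinkers and late high drinkers, with 3 arrays each beside 3 water arrays.

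Drinking lasted to day 57 in the study's design text, while the labels put the end at day 51, so all groups were young adults that differed in what they drank. Each array held a pool of RNA. A water pool was made from 3 mice and an alcohol pool from 1 to 3 mice, and the sample labels do not tie a pool to the 5% or the 10% solution or to its number of mice. The study's list of alcohol pools gives both, but under names that the labels do not carry, so it was not joined to single arrays. In that list every pool with less alcohol consumed held more mice than any pool with more, so intake and pool size cannot be told apart between high and low drinkers. The intake classes describe what mice chose to drink, and mice were not assigned to them. RNA came from the whole dissected hypothalamus, so fewer cells of a type and less RNA per cell cannot be told apart in any value below.

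Orexin neurons and MCH neurons are separate cell groups that lie mingled in the lateral hypothalamus and send axons through most of the brain. Orexins A and B are cut from the Hcrt precursor, sustain wakefulness and promote reward seeking and feeding. They act on the receptors encoded by Hcrtr1, which prefers orexin A, and Hcrtr2, which binds both peptides, mainly through Gq proteins. MCH is cut from the Pmch precursor, promotes feeding and REM sleep, and acts in rodents on Mchr1 alone, through Gi, Go and Gq proteins. Both systems have been studied for their part in alcohol intake.

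The sequences of the probes are shown because they say which transcript each value stands for, above all for Hcrtr2, which is read by 3 probes. Each is 60 bases long and is printed 5′ to 3′ in lower case as the array files give it, whole for 3 of them and cut to the first 30 bases for the other 4, which may reach into an untranslated region.

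Hcrt: gggagggtccggagtctgaacccatcttct

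Pmch: tgtctgttttaaaaggacctggttaagata

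Hcrtr1: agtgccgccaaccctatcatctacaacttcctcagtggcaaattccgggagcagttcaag

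Hcrtr2, type-2a probe: ttattgctatgatgaggatacccgactcaa

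Hcrtr2, 3′ probe: accaattcttagtcagaacattttattcta

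Hcrtr2, junction probe: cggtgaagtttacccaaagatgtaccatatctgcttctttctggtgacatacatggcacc

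Mchr1: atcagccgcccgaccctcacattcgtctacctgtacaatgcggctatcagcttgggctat

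On mouse build mm9, which the array files use, the Hcrt probe lies at chr11:100623067-100623126 on the minus strand and the Pmch probe at chr10:87555031-87555090 on the plus strand. The Hcrtr1 probe spans 1689 bases at chr4:129808226-129809914 on the minus strand, so its 60 bases cross at least 1 intron of the gene. The 3 Hcrtr2 probes lie on the minus strand of chromosome 9. The type-2a probe, named for the transcript variant it was designed on, is at chr9:76078242-76078301, and the 3′ probe, from base 3556 of its transcript, is at chr9:76073799-76073858. The junction probe stretches over 8058 bases at chr9:76094212-76102269 and so joins exons further upstream. The Mchr1 probe is at chr15:81068324-81068383 on the plus strand.

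Values are log2 signal intensities minus the 75th percentile of the array, so 0 is the level of the probe at that percentile and a difference of 1 is a doubling. The levels of separate probes are not set against each other, since probes differ in how strongly they bind. All but 1 of these probes were well above background on all 12 arrays. The exception, the junction probe of Hcrtr2, was so on 4 of 12, namely 2 of 3 water arrays, no low drinker array, 1 early and 1 late high drinker array. All 7 probes had a value on every array and were tested in every comparison. The scanner's own error of a spot was 10.0% for Hcrt and Pmch, up to 18.1% for the 3′ probe of Hcrtr2, and between 17.6% and 46.7% for the junction probe.

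The labeled tissue was checked against 10 markers of the hypothalamus, such as Avp, Oxt, Pomc and Agrp. All were on the array, 9 of 10 were well above background on 12 arrays, and their summed level ran from 6.31 to 6.57 in water, 6.39 to 6.76 in low, 6.32 to 6.66 in early and 6.50 to 6.75 in late drinkers. The 12 arrays lay on 3 slides. Slide 1, scanned on a later day than the others, carried all water arrays together with pool 1 of the low drinkers. Slide 2 carried the other low drinker arrays and, from the early high drinkers, pools 1 and 2. Slide 3 carried the last early array (pool 3) and every late array. Water and high drinker arrays never shared a slide, so for these the slide and the group cannot be told apart. The share of spots well above background was 67.0% to 79.3% per array, with no spot saturated, and the small number of arrays limits the precision of every value.

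Hcrt is the gene that defines orexin neurons, and its probe was bright on every array, with intensities from 75361 to 121652. On the scaled log2 level the water pools were at 5.44, 5.96 and 5.65 and the low drinker pools at 5.85, 5.90 and 5.70. The early high drinker pools were at 5.82, 5.85 and 5.75 and the late high drinker pools at 6.05, 5.98 and 5.55. Water pool 2 was above all 3 early pools, late pool 3 was below all but 1 water pool, and every pair of groups overlapped. By their means the groups ran from late (5.86 ± 0.27, SD, n = 3) through low (5.82 ± 0.10) and early (5.81 ± 0.05) to water (5.68 ± 0.26), and no neighbours in this order differed beyond their spread. The spread itself was unequal, with a wide range in water and late drinkers and a narrow one in early drinkers.

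Between alcohol and water, the log2 level of Hcrt differed by 0.15 (standard error 0.11, 95% confidence interval -0.10 to 0.39, adjusted p = 0.828 with limma). This is a fold of 1.11, with bounds of 0.932 and 1.31. Of the 9 alcohol arrays 8 lay above the water mean, and the exact 2-sided permutation test gave p = 0.25, where the smallest it could give was 0.00455. The difference was 0.28 without water pool 2 and 0.03 without water pool 1. Between high and low drinkers it was 0.02 (95% confidence interval -0.27 to 0.31, limma adjusted p = 0.957), and between late and early high drinkers 0.05 (-0.28 to 0.39, limma adjusted p = 0.911).

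Pmch, the gene that defines MCH neurons, had intensities from 53450 to 87736. The scaled log2 levels were 5.48, 5.17 and 5.01 in the water pools and 5.30, 5.34 and 5.12 in the low drinker pools. They were 5.48, 5.71 and 5.14 in the early high drinker pools and 5.49, 5.58 and 5.52 in the late high drinker pools. The late pools lay close together at the upper end, above all low drinker pools and, by 0.01, above the highest water pool, while the early pools spread over most of the range of all arrays. The means ran in the order late (5.53 ± 0.05, SD, n = 3), early (5.44 ± 0.29), low (5.25 ± 0.11) and water (5.22 ± 0.24), and neighbours in this order overlapped. Of all probes with values in both groups, 8.56% lay wholly higher in late than in low drinkers and 12.4% wholly higher in late drinkers than in water, so the separation of Pmch was a common one.

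Pmch was 0.19 higher in alcohol than in water on the log2 level (standard error 0.13, 95% confidence interval -0.10 to 0.48, limma adjusted p = 0.821), a difference within the spread of the arrays. The exact 2-sided permutation test gave p = 0.223, and 7 of 9 alcohol arrays lay above the water mean. The difference was 0.32 without water pool 1 and 0.08 without water pool 3. Between high and low drinkers the difference was 0.23 (standard error 0.13, interval -0.06 to 0.53, limma adjusted p = 0.405), with 5 of 6 high drinker arrays above the low drinker mean. The exact permutation p of that difference was 0.119, where 0.0119 was the smallest possible. Early high drinker pool 3, at 5.14, was the array below the mean, and without it the difference was 0.31. The difference fell to 0.17 without early pool 2 and to 0.17 without low drinker pool 3. While Pmch overlapped between high and low drinkers, the anterior pituitary list lay wholly apart. Its summed log2 levels were 2.79 to 3.23 in low drinkers, -0.13 to 1.75 in early and 1.97 to 2.69 in late high drinkers. Its markers Tshb and Prl overlapped between high and low drinkers. Late drinkers were wholly below low drinkers in the striatal list (at most 2.10 against at least 2.26) and the choroid plexus list (at most 1.30 against at least 1.45). Of the choroid plexus markers only Clic6 lay apart in this way, and of the striatal markers all but Rgs9. The part of these lists in the result was not tested.

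Within slides, where groups met on the same glass, early high drinkers exceeded low drinkers in Pmch by 0.36 on slide 2 (2 arrays against 2) and late exceeded early high drinkers by 0.39 on slide 3 (3 against 1). Low drinker pool 1 exceeded water by 0.08 on slide 1. With slide as a fixed block the difference between high and low drinkers was 0.56 (standard error 0.18, limma adjusted p = 0.259), which did not pass the adjusted threshold. In that fit the late drinkers are tied to the low drinkers only through early pool 3, the 1 early array on slide 3. Late and early high drinkers differed in Pmch by 0.09 (interval -0.25 to 0.43, limma adjusted p = 0.850), which was -0.06 without early pool 3 and 0.22 without early pool 2.

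The gene Parpbp lies on the opposite strand at the Pmch locus and overlaps it. Its 2 probes were well above background on 1 and on 2 of the 12 arrays, so its level is not given.

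**Figure D1:**
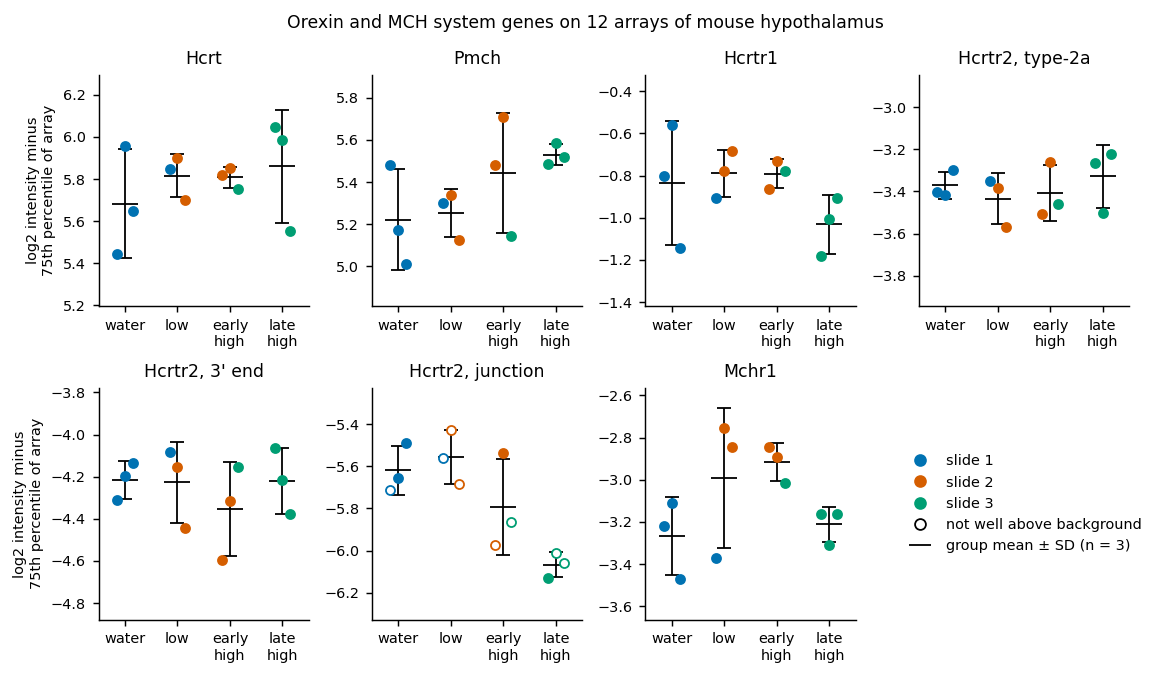
Scaled log2 intensity (y axis, the same span in each panel) of the 7 probes in water, low, early high and late high drinker pools. Points are arrays colored by slide, open points were not well above background, and bars give the mean and SD of 3 arrays. The late pools lie close together for Pmch (5.49 to 5.58) and below the early pools for Hcrtr1 and Mchr1 (as for 13.3% of all probes), and all groups overlap for Hcrt.

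Among the receptors, Hcrtr1, which prefers orexin A, varied more within water than within any other group. Its scaled log2 levels were -0.80, -0.56 and -1.14 in the water pools and -0.91, -0.78 and -0.68 in the low drinker pools. The early high drinker pools were at -0.86, -0.73 and -0.78 and the late high drinker pools at -1.18, -1.01 and -0.91. The late pools lay below all early pools, as did those of 13.3% of all probes with values in both groups. The water pools spanned nearly the whole range of the other 9 pools. Low (-0.79 ± 0.11, SD, n = 3), early (-0.79 ± 0.07) and water (-0.83 ± 0.29) had nearly the same mean, and late drinkers stood lower at -1.03 ± 0.14, with a range that still met those of water and low drinkers.

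Hcrtr1 differed by -0.04 between alcohol and water on the log2 level (standard error 0.12, interval -0.30 to 0.23, limma adjusted p = 0.960), and the sign turned to 0.10 without water pool 2. Between high and low drinkers it differed by -0.12 (interval -0.39 to 0.14, limma adjusted p = 0.624), which was 0.01 with no scaling between arrays. That setting moved all probes alike, their median going from -0.06 to 0.07, and the value of Hcrtr1 was below that median under both settings. Between late and early high drinkers it differed by -0.24 (standard error 0.14, interval -0.55 to 0.07, limma adjusted p = 0.505), and by -0.25 on slide 3 alone. The exact permutation test of that pair of groups gave 0.1, the smallest p that 3 arrays against 3 allow. With no scaling between arrays the difference was -0.09, while the median of all probes moved alike from -0.03 to 0.12. Marker lists also separated late from early drinkers without overlap. The summed log2 level of 3 blood markers, all well above background on 12 arrays, was 6.22 to 6.67 in late and 6.71 to 7.04 in early drinkers. That of 5 markers of the anterior pituitary, 3 of them well above background on 12 arrays, was 1.97 to 2.69 in late and -0.13 to 1.75 in early drinkers. Of these markers, Cga and Tshb were wholly higher in late drinkers. Lhb overlapped and had a lower mean in late drinkers (a difference of -0.21), and Gh and Prl overlapped. The part of these lists in the result was not tested.

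Hcrtr2 encodes the orexin receptor best known from narcoleptic dogs, which lack it. Its type-2a probe, the one with the highest mean level and hence the probe used for the gene, gave -3.40, -3.42 and -3.30 in water and -3.35, -3.38 and -3.57 in low drinkers. It gave -3.51, -3.26 and -3.46 in early and -3.26, -3.50 and -3.22 in late high drinkers. All groups overlapped, and the SD over the 12 arrays was 0.11, the smallest of the 7 probes and below the median of 0.14 over the 29521 probes measured on all arrays. The group means lay between -3.43 ± 0.12 in low and -3.33 ± 0.15 in late drinkers. Alcohol and water differed by -0.02 (interval -0.19 to 0.15, limma adjusted p = 0.969), or a fold between 0.876 and 1.11. This is the narrowest interval among the 5 genes in that comparison. High and low drinkers differed by 0.07 (-0.13 to 0.26, limma adjusted p = 0.725), and by 0.33 with quantile normalization (limma adjusted p = 0.295). Late and early high drinkers differed by 0.08 (-0.14 to 0.30, limma adjusted p = 0.782).

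The 3′ probe of Hcrtr2 ran from -4.59 to -4.06 with overlapping groups. Its differences were -0.05 for alcohol against water, -0.06 for high against low and 0.13 for late against early high drinkers, with limma adjusted p of 0.928, 0.819 and 0.727.

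The junction probe of Hcrtr2 was measured at a level where most arrays were not well above background. It was at -5.71, -5.66 and -5.49 in water, -5.56, -5.43 and -5.69 in low, -5.97, -5.54 and -5.87 in early and -6.13, -6.01 and -6.06 in late drinkers. The late pools were lower than all other 9 arrays. No fold or difference is read from it, because no low drinker array and only 1 array each of early and late drinkers was well above background. Neither other probe of the gene showed this order, with late means of -3.33 and -4.22 that were within 0.11 and 0.01 of the low drinker means. Of all probes, 15.4% lay wholly lower in late than in low drinkers and 13.4% wholly lower in late drinkers than in water.

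Mchr1, the MCH receptor of rodents, had a spread of 0.23 (SD over 12 arrays, range 0.72), against a median SD of 0.13 over the 26040 probes well above background on every array. Its scaled log2 levels were -3.22, -3.11 and -3.47 in the water pools and -3.37, -2.76 and -2.84 in the low drinker pools. The early high drinker pools were at -2.84, -2.89 and -3.01 and the late high drinker pools at -3.16, -3.31 and -3.16. The early pools lay above all water pools and all late pools, and the low drinkers split, with pool 1 among the water arrays and pools 2 and 3 above every water array. The means ran from early (-2.92 ± 0.09, SD, n = 3) through low (-2.99 ± 0.33) and late (-3.21 ± 0.08) to water (-3.27 ± 0.19), and neighbours in this order overlapped. Of all probes 10.9% lay wholly higher in early drinkers than in water. So did the oligodendrocyte list, at 7.38 to 7.47 in early drinkers and 7.12 to 7.31 in water, and its part in the result was not tested.

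Ordered by slide, the same values of Mchr1 ran from -3.47 to -3.11 on slide 1, from -2.89 to -2.76 on slide 2 and from -3.31 to -3.01 on slide 3. All 4 arrays of slide 2, with 2 low and 2 early pools, were thus above the other 8, as were those of 5.26% of all probes measured throughout. Within slides, low drinker pool 1 was 0.10 below the water mean on slide 1, early drinkers were 0.07 below low drinkers on slide 2, and late drinkers were 0.20 below early pool 3 on slide 3.

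**Figure D2:**
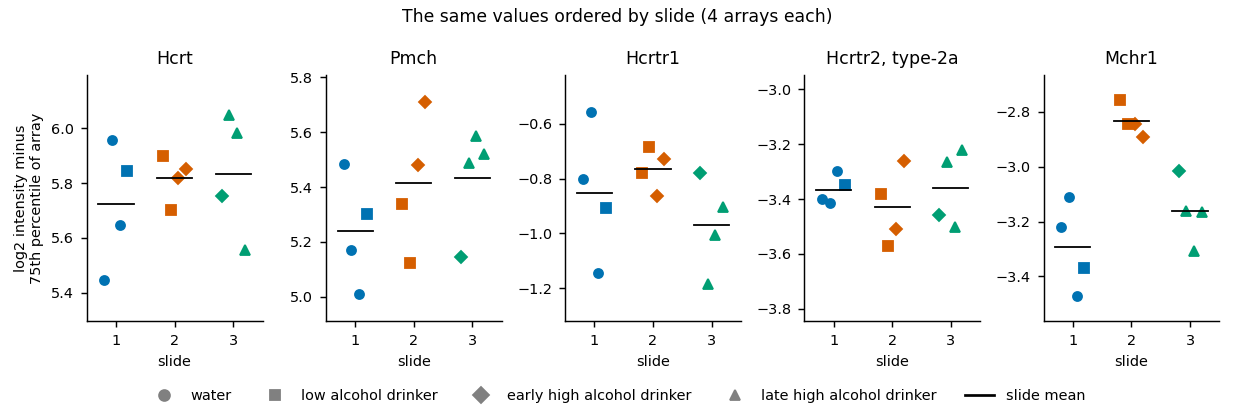
Scaled log2 intensity (y axis) of the 5 genes against slide (x axis), with a marker for each group and a line at the mean of the 4 arrays of a slide. Mchr1 is higher on all 4 arrays of slide 2 (-2.89 to -2.76) than on the other 8, while the slides overlap for Hcrt, Pmch, Hcrtr1 and the type-2a probe of Hcrtr2.

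Mchr1 was 0.23 higher in alcohol than in water on the log2 level (standard error 0.14, interval -0.07 to 0.53, limma adjusted p = 0.819), a fold of 1.17 with bounds of 0.952 and 1.44. The exact permutation test gave p = 0.15, and the water mean was exceeded by 7 of 9 alcohol arrays. Without water pool 3 the difference was 0.12. The sign of this difference turned with slide as a fixed block, where it rests on low drinker pool 1 against the 3 water pools (-0.10, standard error 0.14). High and low drinkers differed by -0.07 (-0.37 to 0.23, limma adjusted p = 0.807), a sign that turned with quantile normalization (0.07). With no scaling the value was 0.05, through the shift of all probes alike given with Hcrtr1, and it was -0.26 without low drinker pool 1.

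Late high drinkers were 0.29 below early high drinkers in Mchr1 with no overlap, as in 13.3% of all probes (difference -0.29, standard error 0.15, interval -0.64 to 0.05, limma adjusted p = 0.471). The exact permutation test of the 3 arrays against 3 gave 0.1, the smallest p it allows, and the difference was -0.14 with no scaling between arrays, again with the shift of all probes alike. The blood and pituitary lists given with Hcrtr1 separated the same arrays, blood in the same and pituitary in the opposite direction. Of 5 striatal markers, all well above background on 12 arrays, the summed log2 level was at most 2.10 in late drinkers and 2.08 to 2.34 in early drinkers. The part of these lists in the result was not tested.

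Across all probes, no probe passed an adjusted p of 0.05 between alcohol and water (0 of 32376 with limma, 0%), and 1789 (5.53%) had an unadjusted p under 0.05. Of the 7 probes of these genes, 0 passed either threshold, and in 0 of the 7 did the 9 alcohol arrays clear the 3 water arrays, as they did upward in 0.982% and downward in 0.325% of all probes. Hcrt, Pmch and Mchr1 had a higher and Hcrtr1 and Hcrtr2 a lower mean in alcohol, with a median difference of 0.15 over the 5 genes beside 0.03 over all probes tested. The methods' t-test called 0 probes after adjustment and 1688 before it.

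Between high and low drinkers 24 of 32250 probes (0.0744%) passed the adjusted threshold, and none was a probe of these genes. This count was 2505 without low drinker pool 1 and 0 without low drinker pool 2. At an unadjusted p under 0.05, 15.5% of all probes and 1 of the 7, the Hcrtr2 junction probe, were called, a share near the background, and that probe was not well above background on any low drinker array. The 6 high drinker arrays cleared the 3 low drinker arrays in 0 of the 7 (in 1.65% of all probes upward and in 2.97% downward). The median over the 5 genes was 0.02, beside -0.06 over all probes.

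Late and early high drinkers differed in 0 of 33141 probes after adjustment (0%) and in 4025 (12.1%) before it with limma, among which was again 1 of the 7, the junction probe, well above background on 1 of 3 arrays in each group. Among 11 alternatives of processing and model, Mchr1 had an unadjusted p under 0.05 in 4 and Hcrtr1 in 1, and neither passed after adjustment. Over all probes the unadjusted count ranged from 1469 to 5248 under these alternatives. In 3 of the 7, Hcrtr1, Mchr1 and the junction probe, the late pools lay wholly below the early pools, as did 13.3% of all probes with values in both groups, and in 0 of the 7 wholly above (8.24% of all probes). The median over the 5 genes was 0.05, beside -0.03 over all probes.

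**Figure D3:**
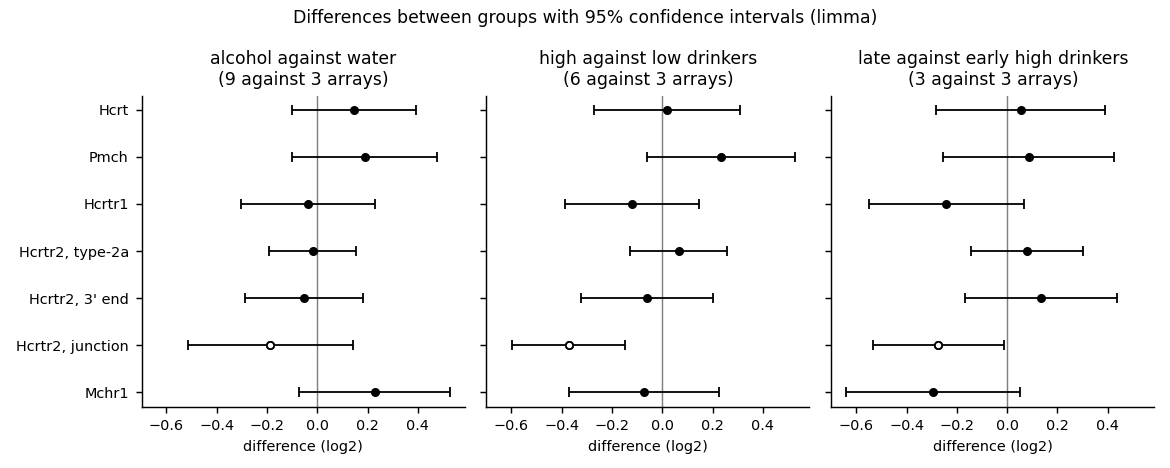
Difference in log2 level (x axis) with its 95% confidence interval from limma for the 7 probes in each of 3 comparisons. All 7 intervals for alcohol against water include 0, as do those of the 6 probes with filled points in the other 2 comparisons. The open point is the Hcrtr2 junction probe, which was well above background on 4 of 12 arrays, so its values are no measured difference.

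The genes around these systems were described with 30 genes, in 4 lists and with Parpbp beside them, all of them tested. In all, 3 of 30 (10%) had an unadjusted p under 0.05 between alcohol and water, 1 of 30 (3.33%) between high and low drinkers and 3 of 30 (10%) between late and early high drinkers. Over all probes these shares were 5.53%, 15.5% and 12.1%. After adjustment 0 of 30 passed in any comparison.

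Genes that orexin neurons express beside Hcrt were 8 in number, and 7 were well above background on all arrays (Qrfp, a further feeding peptide, was so on 5). None had an unadjusted p under 0.05 in any of the 3 comparisons, and their median difference between alcohol and water was 0.03, the same as over all probes. Pdyn, which encodes the dynorphin that orexin neurons release with orexin, differed by -0.10 (standard error 0.07, limma adjusted p = 0.820). Igfbp3, a binding protein of insulin-like growth factors, differed by 0.09 (standard error 0.08, limma adjusted p = 0.838).

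Of 4 genes of MCH neurons, 0 passed the unadjusted threshold between alcohol and water, with a median of -0.03. Nucb2, the precursor of nesfatin-1, differed by 0.08 (standard error 0.05, limma adjusted p = 0.819) and Tacr3, the neurokinin B receptor, by -0.12 (standard error 0.10, limma adjusted p = 0.828). Tacr3 was also the 1 gene of this list with an unadjusted p under 0.05 between late and early high drinkers. Its late pools were at -0.87, -0.66 and -0.54 and its early pools at -0.40, -0.45 and -0.48, a difference of -0.24 (standard error 0.09, limma adjusted p = 0.362) and of -0.20 on slide 3.

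A group of 6 genes processes prohormones such as these, among them the convertases Pcsk1 and Pcsk2. All 6 had a higher mean in alcohol, from 0.03 to 0.11, with a median of 0.08 beside 0.03 over all probes, and 1 of 6 had an unadjusted p under 0.05, beside 5.53% of all probes. On slide 1, the slide that held both water and alcohol arrays, 4 of the 6 were higher in low drinker pool 1 than in water, and Pcsk2 and Pam were lower (-0.03 and -0.21). The gene with an unadjusted p under 0.05 was Cpe, the carboxypeptidase that trims the cut peptides. Its water pools were at 6.49, 6.55 and 6.52, its low drinker pools at 6.62, 6.51 and 6.71, its early pools at 6.64, 6.64 and 6.58 and its late pools at 6.63, 6.67 and 6.63. Low drinker pool 2 was the 1 alcohol array within the range of water, and the difference was 0.10 (standard error 0.05, limma adjusted p = 0.819), and 0.09 on slide 1. Scg5, the chaperone of Pcsk2, differed by 0.09 (standard error 0.05, limma adjusted p = 0.819).

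In the list of 11 genes for signaling by the receptors, 2 had an unadjusted p under 0.05 between alcohol and water, both higher, beside 3.85% of all probes that were called higher. The median was 0.07. Prkca, a protein kinase C downstream of Gq, was at -3.14, -3.27 and -3.25 in water and at -3.06, -3.01 and -2.90 in low drinkers. It was at -3.04, -3.08 and -2.96 in early and at -2.82, -2.96 and -3.01 in late high drinkers. All 9 alcohol arrays were above all 3 water arrays, as were those of 0.982% of all probes measured on all arrays. The difference was 0.24 (standard error 0.06, unadjusted p = 0.00192, limma adjusted p = 0.819), and low drinker pool 1 exceeded the water pools of its slide by 0.16. Plcb4, a phospholipase C driven by Gq, differed by 0.26 (standard error 0.12, limma adjusted p = 0.819), but low drinker pool 1 was 0.21 below water on slide 1.

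Gnai1, a Gi subunit, was the 1 gene of the 30 with an unadjusted p under 0.05 between high and low drinkers (0.27, standard error 0.06, limma adjusted p = 0.124). Its low drinker pools were at 4.17, 4.29 and 4.06, and its high drinker pools ran from 4.28 to 4.59. On slide 2 early drinkers exceeded low drinkers by 0.25. Gnai1 overlapped between high and low drinkers. The anterior pituitary list lay wholly apart between them, with low drinkers at 2.79 to 3.23 and no high drinker pool above 2.69, although its markers Tshb and Prl overlapped. Gnai2 and Gnao1, further subunits of the Gi and Go class, were lower in late than in early high drinkers, by differences of -0.23 (standard error 0.07, limma adjusted p = 0.324) and -0.13 (standard error 0.05, limma adjusted p = 0.399), and on slide 3 by -0.15 and -0.07. The blood and pituitary lists separated these late and early arrays, as given with Hcrtr1, also where Tacr3 is concerned. The part of these lists in the values of Gnai1, Gnai2, Gnao1 and Tacr3 was not tested. Tacr3, Gnai1, Gnai2 and Gnao1 were named after their values in these comparisons were seen.

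**Figure D4:**
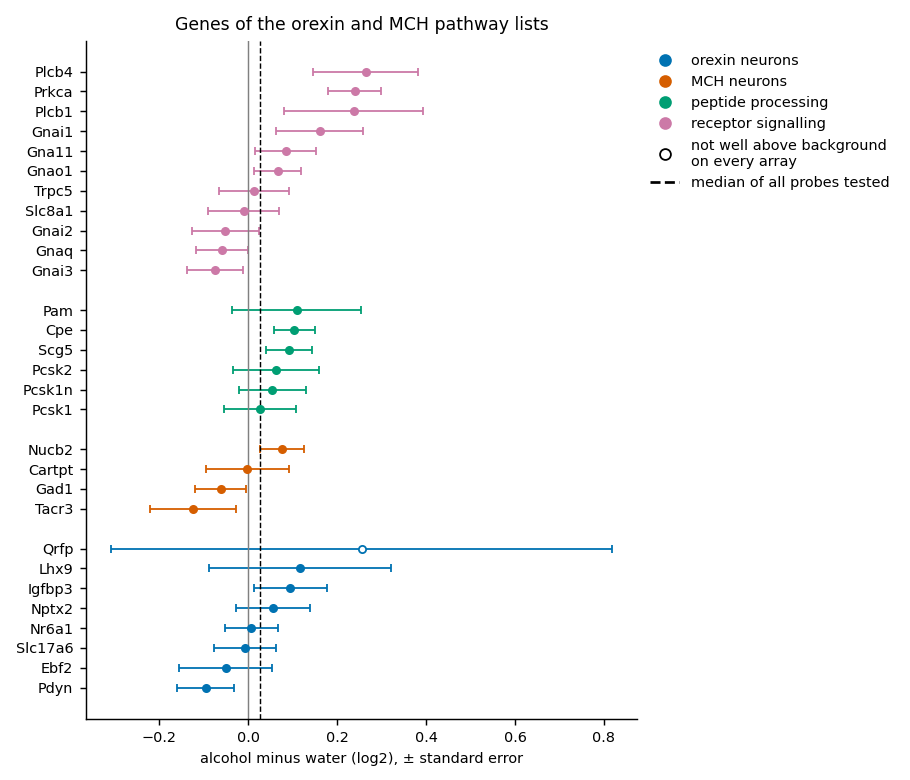
Difference in log2 level between alcohol and water (x axis) with its standard error for the genes of 4 lists, with a dashed line at the median of all probes tested (0.03). The 6 genes of peptide processing lie between 0.03 and 0.11, and Prkca at 0.24 and Plcb4 at 0.26 are the signaling genes with an unadjusted p under 0.05.

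The other marker lists gave summed log2 levels that overlapped between water and the 9 alcohol arrays, but in 5 lists the late pools lay wholly apart from water, as they did for Pmch. The oligodendrocyte list also set the early pools wholly above water. These 5 were thalamus and oligodendrocyte, higher in late drinkers, and striatum, choroid plexus and blood, lower in late drinkers. Thalamic markers (5 genes) ran from 2.99 to 3.25 in water, 2.59 to 3.85 in low, 2.45 to 3.88 in early and 3.34 to 4.36 in late drinkers. Cortical markers, of which 1 of 4 was well above background on every array, ran from -2.85 on an early to -2.15 on a low drinker array. Striatal markers ran from 2.19 to 2.33 in water and reached at most 2.10 in late drinkers. Oligodendrocyte markers (4 genes) ran from 7.12 to 7.31 in water, 7.30 to 7.37 in low, 7.38 to 7.47 in early and 7.33 to 7.58 in late drinkers. Choroid plexus markers (4 of 5 on the array) ran from 1.31 to 1.67 in water and 1.13 to 1.30 in late drinkers, and blood markers (3 genes) from 6.91 to 7.21 in water and 6.22 to 6.67 in late drinkers. Their part in the values of the 5 genes was not tested.

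The genes whose log2 levels followed each member most closely over the 12 arrays were found by Pearson's r among 18757 other probes that carry a RefSeq symbol and were well above background on every array. For Hcrt they were Rtbdn (r = 0.925), Atp8a1 (0.865) and Dpysl4 (0.861), and for Pmch Rpl27 (0.919), Dpysl2 (0.907) and Cox5a (0.906). For Hcrtr1 they were Fcrls (0.885), Ppfia3 (0.882) and Galnt2 (0.873), and for the type-2a probe of Hcrtr2 Ncoa6 (0.864), Ankrd42 (0.862) and C1galt1 (0.852). For Mchr1 they were Hpca (0.939), D630003M21Rik (0.937) and Sbno2 (0.936). These are the highest of many values over arrays that share slides, scaling and groups, and they are given as a description.

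**Figure D5:**
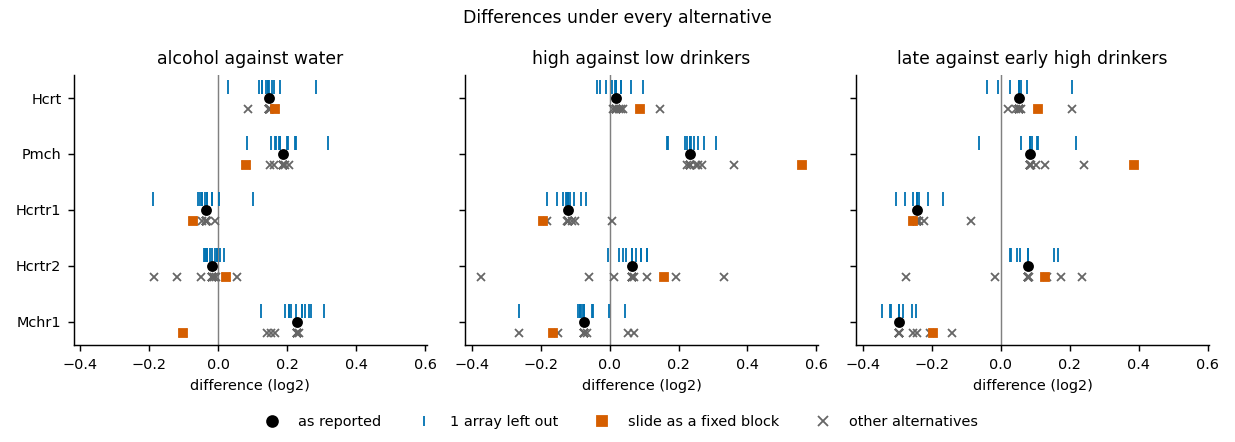
Difference in log2 level (x axis) of the 5 genes in 3 comparisons under the reported settings (circles), with 1 array left out (ticks), with slide as a fixed block (squares) and under all other alternatives (crosses, which for Hcrtr2 include its other probes). Mchr1 turns from 0.23 to -0.10 between alcohol and water with slide as a block, and Pmch goes from 0.23 to 0.56 between high and low drinkers. That Pmch value rests in part on early pool 3, the 1 early array on slide 3.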

How the data were processed

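The authors deposited 1 scanner file per array (12 in all) with a background-corrected signal intensity, for which the files name version 10.5.1.1 of Agilent Feature Extraction, and a table of intensity per probe, which equals the unscaled scanner intensity. The methods state detrending, removal of outlier spots and a signal/noise minimum of 2, a log2 scale and presence in over 50% of the samples of each group. Here the log2 of the deposited intensity was used, after subtracting each array's own 75th percentile over its 43379 non-control spots. Spots that failed either filter were missing, and spots of 1 probe were averaged. The percentile itself lay between 1512 and 1853.

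The comparison of alcohol with water used limma (version 3.58.1, under R 4.3.3) on all 12 arrays, and the intake classes as contrasts of a fit of 4 group means, with Benjamini-Hochberg adjustment over all probes tested. Single values were tested by exact 2-sided permutation. Replicates are pools of mice, and p-values measure the spread between pools. The steps were tested on simulated data. The members and lists were chosen with earlier results of these data known. The probe of a gene was that with the highest mean, and the 2 genes with the smallest p for alcohol against water were named from each list. Alternatives covered scaling, background correction, the authors' table, filters, slide, scan day, replicate number, the t-test, the arrays in the fit, the probe and each array left out. Whether single groups overlapped was described after their values were seen. Of the 7 probes, 6 matched a RefSeq accession, and the type-2a probe kept the name in the array files. Figures were drawn with matplotlib 3.10.9.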

Additional observations from a re-analysis of the deposited data

Results flagged for a closer look

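Each of 35 genes and probes was checked for an array that stood far from the rest of its group, by the gap to the nearest array as a share of the group's range. Chance gives about 1 in 20 such cases, or 1.75 of 35. In the 9 alcohol arrays 3 were found and in the 6 high drinker arrays 2, and none was a probe of Hcrt, Pmch or the receptors. Over the alcohol arrays, Nptx2 had a gap share of 0.523 (low drinker pool 1 at -2.21, the next at -1.98), Pcsk2 one of 0.544 (early high drinker pool 1 at 4.12, the next at 4.36) and Plcb4 one of 0.575 (low drinker pool 1 at -1.38, the next at -0.94). Over the high drinker arrays, Pcsk2 had a gap share of 0.685 (early pool 1 again, the next at 4.42) and Plcb4 one of 0.729 (late pool 3 at -0.62, the next at -0.85).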

How the results depend on the processing

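Over the 5 genes, 3 comparisons and all alternatives, 327 of 351 values kept their sign and 24 turned, and 0 passed an adjusted p of 0.05 (lowest 0.133). The cause of a turned sign or a moved count was not tested. Between alcohol and water, Hcrtr2 turned to 0.0533 with normexp and to 0.0227 with slide or scan day as a fixed block, and Mchr1 to -0.10 with either block. Between high and low drinkers, Mchr1 turned to 0.0709 with quantile normalization and, with no scaling, to 0.0542, and Hcrtr1 to 0.00697 with no scaling. With the other probes Hcrtr2 gave -0.0602 (3′ probe) and -0.37 (junction probe). Between late and early high drinkers, Hcrtr2 turned to -0.0154 with normexp and gave -0.27 with the junction probe. The values of the junction probe, 2 of the 24, are no measured differences, since no low drinker array and 1 array each of early and late drinkers was well above background. With 1 array left out, alcohol against water ranged from 0.03 to 0.28 (Hcrt), 0.08 to 0.32 (Pmch), -0.19 to 0.10 (Hcrtr1), -0.0405 to 0.0176 (Hcrtr2) and 0.12 to 0.31 (Mchr1). High against low ranged from -0.0374 to 0.0960 (Hcrt), 0.17 to 0.31 (Pmch), -0.18 to -0.07 (Hcrtr1), -0.00322 to 0.11 (Hcrtr2) and -0.26 to 0.0434 (Mchr1). Late against early ranged from -0.0390 to 0.21 (Hcrt), -0.0642 to 0.22 (Pmch), -0.30 to -0.17 (Hcrtr1), 0.03 to 0.17 (Hcrtr2) and -0.34 to -0.25 (Mchr1). Probes past the adjusted threshold between alcohol and water went from 0 to 4 with slide and 2 with scan day as a fixed block. Between high and low drinkers they went from 24 to 1 with quantile normalization, 364 with normexp, 0 with no filter, 1 with probes well above background alone, 5 with slide as a random block, 2461 with scan day, 0 with the methods' t-test and 11 with the arrays compared alone. With an array left out they ranged from 0 (low drinker pool 2) to 2505 (low drinker pool 1), with 160 without late pool 3. Between late and early high drinkers they went from 0 to 5 with quantile normalization, 1 with no scaling, 9 with slide and 8 with scan day as a fixed block, and 1 with the arrays compared alone, and ranged from 0 to 194 (early pool 3) with an array left out, with 103 without late pool 3. Unadjusted counts ranged from 475 to 2919, from 2742 to 8323 and from 1469 to 5248 in the 3 comparisons. Without scaling all probes moved alike, their median going from -0.06 to 0.07 for high against low and from -0.03 to 0.12 for late against early. The split of unadjusted calls, higher against lower, went from 1246 and 543 to 996 and 987 (quantile) or 1326 and 309 (no scaling) for alcohol against water, from 1064 and 3942 to 2790 and 2214 or 3341 and 1803 for high against low, and from 1373 and 2652 to 1725 and 1999 or 4334 and 914 for late against early.

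The replicate numbers of the labels showed no clear pairing of the arrays. Over 18 pairs of equal number the correlation of deviations ran from -0.09 to 0.18 (median -0.00101), and 3 exceeded 0.1. Over 36 pairs of unequal number it ran from -0.18 to 0.17 (median -0.00430), and 4 exceeded 0.1. With the replicate number as a block, 0 probes passed between high and low drinkers in place of 24, and no call on the 5 genes changed. The dim Hcrtr2 junction probe, well above background on 4 arrays, limits what these data show of that part of the transcript.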
